A study of Mus musculus with 6 samples.

Results

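The 34 genes described here encode subunits of respiratory complexes II, III, IV and V of mitochondria, with the electron carrier cytochrome c. They were measured in heart ventricles of mice that overexpress the microRNA miR-499 and of wild-type littermates. The genes were chosen by name, and all 34 were found among 19938 genes measured on the array. Of these 34 genes, 4 belong to complex II, 6 to complex III, 1 is cytochrome c, 13 belong to complex IV and 10 to complex V. Each gene was read from the probe set with 1 gene symbol and the highest mean log2 value over the 6 mice. The transgenic mice, TG-17, come from line 17, a single transgenic line of FVB/NCrl background that carries miR-499 under the Myh6 promoter, which is active in heart muscle cells. Their controls, WT, are littermates without the transgene. Ventricles of 3 TG-17 and 3 WT mice were taken at postnatal day 17, and the RNA of each mouse was hybridised to 1 Affymetrix mouse gene array. The values are log2 RMA values, which have no counts behind them and are normalized between arrays, so they show changes relative to the other genes. In ventricular tissue a change in the cells of a type and a change in the RNA per cell cannot be told apart.

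The respiratory chain passes electrons from nutrients to oxygen in the inner mitochondrial membrane. Complex II takes electrons from succinate, complex III passes them from ubiquinol to cytochrome c, and complex IV, cytochrome c oxidase, passes them to oxygen. Complexes III and IV pump protons as they do so, and complex V, ATP synthase, uses the returning protons to make ATP. Heart muscle is dense in mitochondria and depends on this chain for contraction, and it uses its own isoforms of several complex IV subunits.

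The transgene was first checked on the array. The probe set of Mir499 had log2 values of 5.48, 5.34 and 5.68 in the WT mice and of 9.31, 9.33 and 8.87 in the TG-17 mice. All 3 TG-17 values lay far above the WT values, and the log2 fold change was 3.67 (standard error, SE, 0.15; limma adjusted p = 0.00772). Adjusted p values are those of limma, corrected by Benjamini-Hochberg for all probe sets on the array. The mature microRNA lies at chr2:155622893-155622913 of GRCm38.p6, on the plus strand, and its RefSeq sequence is given below as the molecule that the transgene adds, with the seed, bases 2 to 8, in capitals. The array reads the gene, and the level of the mature molecule was not analysed here.
miR-499-5p: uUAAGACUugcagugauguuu

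Nuclear genes of the respiratory chain share promoter motifs of a few transcription factors, and these were looked for in RefSeq promoter windows of GRCm38.p6, each holding 250 bases before and 50 bases after a start site. Windows were given for 24 of the 34 genes, 27 windows in all. The letters GCGCATGCG, a motif of the factor NRF1, were found on either strand in 3 of these 27 windows (11.1%) and in 1.75% of all 32851 windows. With any middle base, GCGCANGCG, which includes the former, 9 of 27 windows (33.3%) and 6.25% of all windows had a match. The motif CCGGAAGT of ETS factors such as GABPA was found in 2 of 27 windows (7.41%) and in 3.89% of all windows. The motif TCAAGGTCA of the ERR receptors was also found in 2 of 27 windows (7.41%), and in 0.423% of all windows. The YY1 motif AAGATGGCG was found in 1 of 27 windows (3.7%) and in 1.4% of all windows. A match is only a run of letters and no evidence that a factor binds there. The matched stretches below are shown because they come from the windows of genes of each kind of value described below, namely Cox6a1 and Cox8a with higher mean values in TG-17, Sdhd with lower ones, and Cycs, Uqcrc1 and Atp5g3 with values that overlapped between the groups. The motif is in capitals, and every sequence is read along the strand of its gene. They lie at chr5:115349102-115349130 on the minus strand (Cox6a1), chr19:7217605-7217632 on the minus strand (Cox8a), chr9:50603910-50603938 on the minus strand (Sdhd), chr6:50566612-50566640 on the minus strand (Cycs), chr9:108936668-108936696 on the plus strand (Uqcrc1) and chr2:73911360-73911388 on the minus strand (Atp5g3).
Cox6a1, NRF1: caggaacgggGCGCATGCGcgctctcgct
Cox8a, ETS: tttccgaaatACTTCCGGctcgggcgtc
Sdhd, NRF1 with any middle base: tcgctggggtGCGCACGCGcggtggcagc
Cycs, NRF1: catgctagctCGCATGCGCgcgcacaaac
Uqcrc1, NRF1: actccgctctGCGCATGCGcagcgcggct
Atp5g3, ERR: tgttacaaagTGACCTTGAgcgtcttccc
The Uqcrc1 match lies after the start site, the Cox8a match at it and the others before it. In the deposited values the genes with the letters GCGCATGCG, Cox6a1, Cycs and Uqcrc1, had log2 fold changes of 0.26, 0.074 and -0.027. The relation between motifs and fold changes was not tested.

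No gene of complexes II to V passed either limit of the study in TG-17 ventricles. With limma, 0 of the 34 genes passed a log odds B above 0, the less stringent limit of the study, which 0.341% of all genes and 0.788% of the bright genes described below passed. None passed a limma adjusted p under 0.05, a limit that 0.00562% of all probe sets passed, and the lowest adjusted p of the 34 was 0.240, that of Cox6a1. These shares of all genes and of all probe sets are smaller than those the study reported for its transcripts at the same limits. The log2 fold changes ran from -0.10 to 0.26. With their 95% confidence intervals, 32 of the 34 genes stayed within 0.3 log2 units, or 1.23-fold, of no change, and the exceptions were Cox6a1 and Cox6b1. At a limma p under 0.05 before adjustment, 3 genes were higher in TG-17, Cox6a1, Cox6b1 and Cox8a, and 0 were lower, beside 6.65% of all genes higher and 8.76% lower. All of these 3 genes encode subunits of complex IV. Without WT replicate 1, WT replicate 2 or TG-17 replicate 3, the higher count was 1, and the gene was Cox6a1.

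The 34 genes are bright on this array, which matters for what they are compared with. Their mean log2 values were 8.16 to 13.92, and 32 of them lay above 10, where only 1649 of the 19938 genes lay. In the deposited values more of these bright genes were higher than lower in TG-17, which was not so after a second quantile normalization. Of the 1649 genes, 19.0% were higher and 2.91% lower at a limma p under 0.05 before adjustment, against 36.6% and 1.21% with each array centred on its median and 6.97% and 8.13% after a second quantile normalization. In the deposited values their median log2 fold change was 0.059, against -0.018 over all genes. Of the 32 respiratory chain genes in this class, 2 (6.25%) were higher at that p. The median log2 fold change of the 34 genes was 0.033, with 23 means (67.6%) higher and 11 lower in TG-17. Means were higher for 44.4% of all genes and 74.7% of the bright ones. The median of the 34 genes was 0.085, with 31 means higher and 3 lower, when each array was centred on its median and -0.0019, with 17 higher and 17 lower, after a second quantile normalization. With centred arrays 8 genes turned from lower to higher, Sdhc, Uqcrc1, Uqcrc2, Cyc1, Cox5b, Atp5a1, Atp5d and Atp5g3. After a second quantile normalization 6 turned from higher to lower, Sdhb, Uqcrfs1, Uqcrq, Cox6c, Cox7a2 and Atp5c1. These scalings also moved the median of the bright genes, to 0.11 and -0.0072. Whether the 34 genes differ from other genes of their brightness was not tested.

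The groups of mice were also compared by overlap. In 8 of the 34 genes (23.5%) all TG-17 values lay above all WT values, which was so for 12.2% of all genes and 37.7% of the bright ones. In 4 genes (11.8%) all TG-17 values lay below all WT values, against 13.6% of all genes and 7.03% of the bright ones. In the other 22 genes the groups overlapped. The 8 genes were Cox4i1, Cox5a, Cox6a1, Cox6a2, Cox6b1 and Cox8a of complex IV and Atp5h and Atp5o of complex V, and the 4 genes were Sdhc, Sdhd, Cyc1 and Atp5b. The median deviation of the 34 genes from the WT mean was 0.0034, -0.019 and 0.013 log2 units in the WT mice and 0.029, 0.043 and 0.031 in the TG-17 mice.

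**Figure D1:**
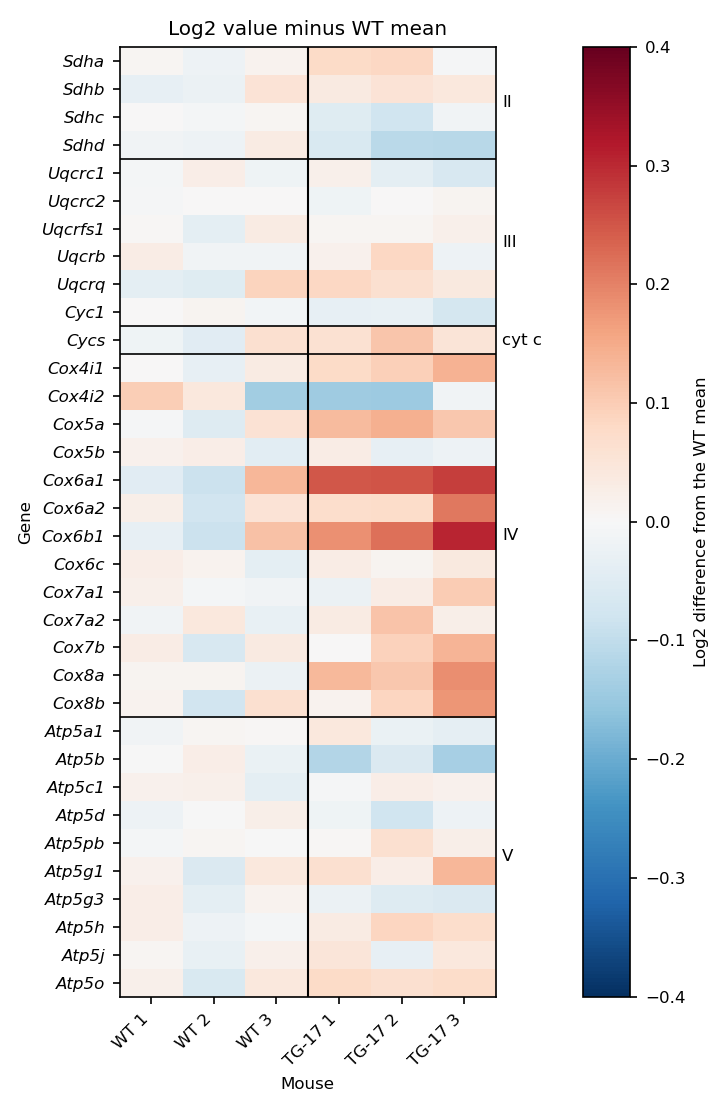
Each cell gives the log2 value of a gene in a mouse minus the mean of the 3 WT mice, with complexes separated by lines and the colour scale running from -0.4 to 0.4 log2 units. The darkest cells are those of Cox6b1 in TG-17 replicate 3 and of Cox6a1 in all 3 TG-17 mice, and the red cells gather in complex IV.

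Complex II, succinate dehydrogenase, is shared by the respiratory chain and the citric acid cycle. Its genes had a median log2 fold change of -0.0013, with 2 means higher and 2 lower, and this median was 0.050 when arrays were centred and -0.062 after a second quantile normalization. In the deposited values Sdha and Sdhb, the catalytic subunits, had higher means and the membrane anchors Sdhc and Sdhd lower ones, but Sdhc turned to 0.0038 with centred arrays and Sdhb to -0.022 after a second quantile normalization. Sdha, the flavoprotein that oxidises succinate, had log2 values of 13.00, 12.97 and 13.01 in WT and of 13.07, 13.08 and 12.99 in TG-17. The third TG-17 mouse lay among the WT mice, and the log2 fold change was 0.051 (SE 0.051, limma adjusted p = 0.651). Sdhb, the iron-sulfur subunit, had a log2 fold change of 0.045. Sdhd, a membrane anchor subunit, had values of 11.85, 11.84 and 11.90 in WT and of 11.80, 11.76 and 11.75 in TG-17. The WT mice were all above the TG-17 mice, by a small margin, with a log2 fold change of -0.094 (SE 0.048, limma adjusted p = 0.404). Sdhc, the other anchor subunit, was named after its values were seen. It had values of 12.41, 12.40 and 12.41 in WT and of 12.36, 12.33 and 12.39 in TG-17, a log2 fold change of -0.047, also without overlap. Both anchor subunits thus had lower values in all TG-17 mice, and neither passed the test. At a limma p under 0.05 before adjustment Sdhd was lower after a second quantile normalization and with an intensity trend in the moderation.

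Complex III, the cytochrome bc1 complex, had 6 genes with a median log2 fold change of 0.0053, with 3 means higher and 3 lower. The median was 0.056 with centred arrays and -0.047 after a second quantile normalization, so no direction can be given. Cyc1, the subunit that carries heme c1, had log2 values of 12.91, 12.92 and 12.89 in WT and of 12.87, 12.88 and 12.84 in TG-17. The groups did not overlap, but the log2 fold change was -0.043 (SE 0.046), and with centred arrays it was 0.0077. Uqcrq, a small subunit, had values of 10.72, 10.72 and 10.85 in WT and of 10.85, 10.83 and 10.80 in TG-17. The third WT mouse stood with the TG-17 mice, and the log2 fold change was 0.062 (SE 0.058), which turned to -0.0085 after a second quantile normalization. The core subunits Uqcrc1 and Uqcrc2, the Rieske iron-sulfur protein Uqcrfs1 and the small subunit Uqcrb had log2 fold changes of -0.027 to 0.027. In the deposited values Uqcrc2 had the smallest log2 fold change in size of the 34 genes, -0.00097 with an interval of -0.11 to 0.11. It was 0.050 with centred arrays and -0.035 after a second quantile normalization.

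Cytochrome c, encoded by Cycs in somatic cells, carries electrons from complex III to complex IV. Its chosen probe set had log2 values of 12.70, 12.67 and 12.78 in WT and of 12.77, 12.82 and 12.77 in TG-17. The third WT mouse lay within the TG-17 range, and the log2 fold change was 0.074 (SE 0.054, limma adjusted p = 0.538). Most mammalian genomes hold many retrocopies of cytochrome c, which bears on this probe set, as described with the other multiple probe sets.

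Among the 34 genes, complex IV had the highest median, 0.092 over 13 genes, with 11 means higher and 2 lower in TG-17. It was 0.14 when arrays were centred, with 12 higher and 1 lower, and 0.040 after a second quantile normalization, with 9 higher and 4 lower, so its sign did not turn. In 6 of the 13 genes (46.2%) all TG-17 values lay above all WT values, in 0 below, and 3 genes (23.1%) were higher at a limma p under 0.05 before adjustment. Among bright genes these shares were 37.7% and 19.0%, and among all genes 12.2% and 6.65%. The sets are unlike, since only 11 of the 13 genes were bright. Cox8a, which is among both the 6 and the 3, was not bright, and neither was Cox4i2. The other 21 of the 34 genes had a median of 0.012, with 0 at that p. This ranking holds for the 34 genes only. The list of other nuclear subunits described below had a median of 0.093, with 11 means higher and 5 lower. That list includes Atp5e and Atp5l of ATP synthase, at log2 fold changes of 0.29 and 0.22. The mice differed in how high complex IV lay. The median deviation of its genes from the WT mean was 0.013, -0.033 and 0.032 in the WT mice and 0.033, 0.092 and 0.13 in the TG-17 mice. TG-17 replicate 1 was level with WT replicate 3, and TG-17 replicate 3 had the highest TG-17 value in 10 of the 13 genes. Leaving out 1 mouse at a time gave medians of 0.072 to 0.12 for complex IV. The difference between complex IV and the other complexes was not tested.

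**Figure D2:**
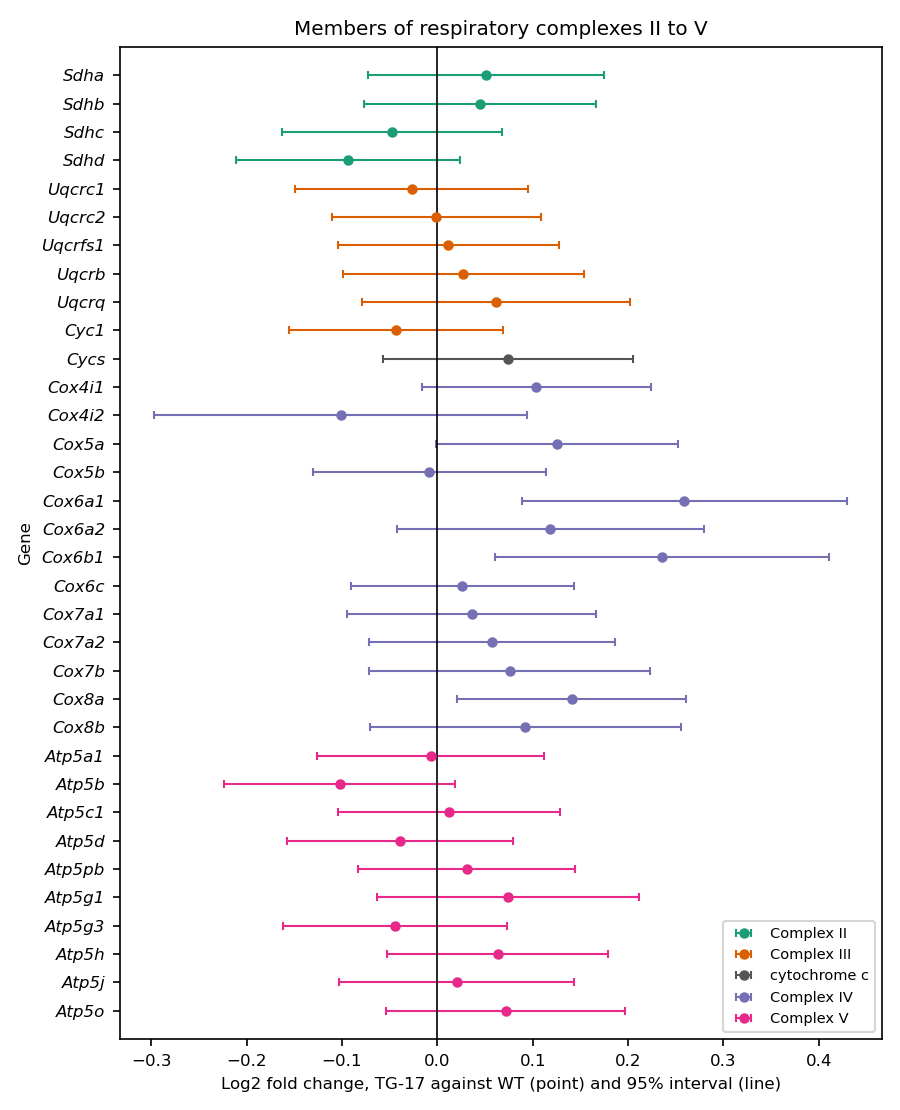
Points are log2 fold changes of TG-17 against WT in limma and lines their 95% confidence intervals, coloured by complex. The intervals of Cox6a1, Cox6b1 and Cox8a lie above 0 and all others include 0.

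Subunits encoded in the nucleus surround the catalytic core of complex IV. Cox6a1, the non-muscle form of subunit VIa, had log2 values of 10.04, 9.998 and 10.22 in WT and of 10.33, 10.34 and 10.36 in TG-17. All TG-17 mice were above all WT mice, and the log2 fold change, the largest of the 34 genes, was 0.26 (SE 0.070), or 1.20-fold, with a limma adjusted p of 0.240. Cox6b1, a subunit facing the intermembrane space, had values of 11.76, 11.71 and 11.91 in WT and of 11.97, 12.01 and 12.10 in TG-17. The third WT mouse came within 0.1 of the lowest TG-17 mouse, and the log2 fold change was 0.24 (SE 0.072), or 1.18-fold, with a limma adjusted p of 0.260. Cox8a, the widely expressed form of subunit VIII, had values of 9.54, 9.54 and 9.51 in WT and of 9.66, 9.63 and 9.71 in TG-17. Its groups were tight and did not overlap, and the log2 fold change was 0.14 (SE 0.049), or 1.10-fold, with a limma adjusted p of 0.283. After a second quantile normalization the log2 fold change of Cox8a was 0.085. Cox8a was then not at a limma p under 0.05 before adjustment, nor was it with the replicate number as a block. With 1 mouse left out, Cox8a was at that p only in the fit without TG-17 replicate 2.

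Cox4i1, the main form of the regulatory subunit IV, had log2 values of 12.36, 12.33 and 12.39 in WT and of 12.44, 12.46 and 12.50 in TG-17, without overlap and with a log2 fold change of 0.10 (SE 0.049). Cox4i2, the form known from lung and from low oxygen, had values of 8.31, 8.25 and 8.07 in WT and of 8.07, 8.07 and 8.20 in TG-17. Its groups overlapped, and the log2 fold change of -0.10 (SE 0.080) was the lowest of complex IV. Cox5a, a subunit facing the matrix that was named after its values were seen, had values of 11.15, 11.11 and 11.22 in WT and of 11.29, 11.30 and 11.26 in TG-17. It did not overlap, at a log2 fold change of 0.13 and a limma p of 0.0524 before adjustment. Cox5b, another subunit on the matrix side, had one of -0.0082, and Cox6c and Cox7b had 0.026 and 0.076, all with overlapping groups.

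Striated muscle uses its own forms of subunits VIa, VIIa and VIII, encoded by Cox6a2, Cox7a1 and Cox8b, beside the forms of other tissues, encoded by Cox6a1, Cox7a2 and Cox8a. Each of these 6 genes had a higher mean in TG-17, and in each pair the smaller log2 fold change was that of the muscle form, although Cox7a2 turned to -0.020 after a second quantile normalization and then lay below Cox7a1. Cox6a2 had log2 values of 12.15, 12.05 and 12.18 in WT and of 12.19, 12.20 and 12.33 in TG-17, a log2 fold change of 0.12 (SE 0.066), with the groups just apart. Cox7a1 had values of 13.00, 12.97 and 12.96 in WT and of 12.95, 13.01 and 13.07 in TG-17, a log2 fold change of 0.036 (SE 0.054). Its partner Cox7a2 had values of 10.96, 11.01 and 10.94 in WT and of 11.01, 11.09 and 11.00 in TG-17, a log2 fold change of 0.057 (SE 0.053). In both genes the groups overlapped. Cox8b had values of 12.62, 12.53 and 12.67 in WT and of 12.62, 12.69 and 12.78 in TG-17, a log2 fold change of 0.092 (SE 0.067), again with overlap.

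To see whether the isoforms moved apart, the log2 value of the second isoform was taken from that of the first in each mouse. Levels of different probe sets are not comparable, so only the difference between the groups is read. Cox6a2 minus Cox6a1 was 2.11, 2.05 and 1.96 in WT and 1.86, 1.86 and 1.97 in TG-17, a difference of -0.14 between the groups (exact permutation test, two-sided p = 0.2, adjusted p = 0.4 over the 4 pairs). WT replicate 3 lay within the TG-17 range. Cox8b minus Cox8a was 3.08, 2.99 and 3.16 in WT and 2.96, 3.05 and 3.07 in TG-17, a difference of -0.048 (exact permutation p = 0.4, adjusted p = 0.533). Cox7a1 minus Cox7a2 was 2.04, 1.95 and 2.02 in WT and 1.95, 1.92 and 2.08 in TG-17, a difference of -0.021 (exact permutation p = 0.8, adjusted p = 0.8), which ran from -0.070 to 0.011 with 1 mouse left out. In all 3 pairs of a muscle form and another form the groups overlapped. Cox4i1 minus Cox4i2 was 4.05, 4.07 and 4.32 in WT and 4.37, 4.39 and 4.30 in TG-17, a difference of 0.20 (exact permutation p = 0.2, adjusted p = 0.4). With 3 mice against 3 the smallest two-sided p of this exact permutation test is 0.1, so no pair could pass 0.05.

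**Figure D3:**
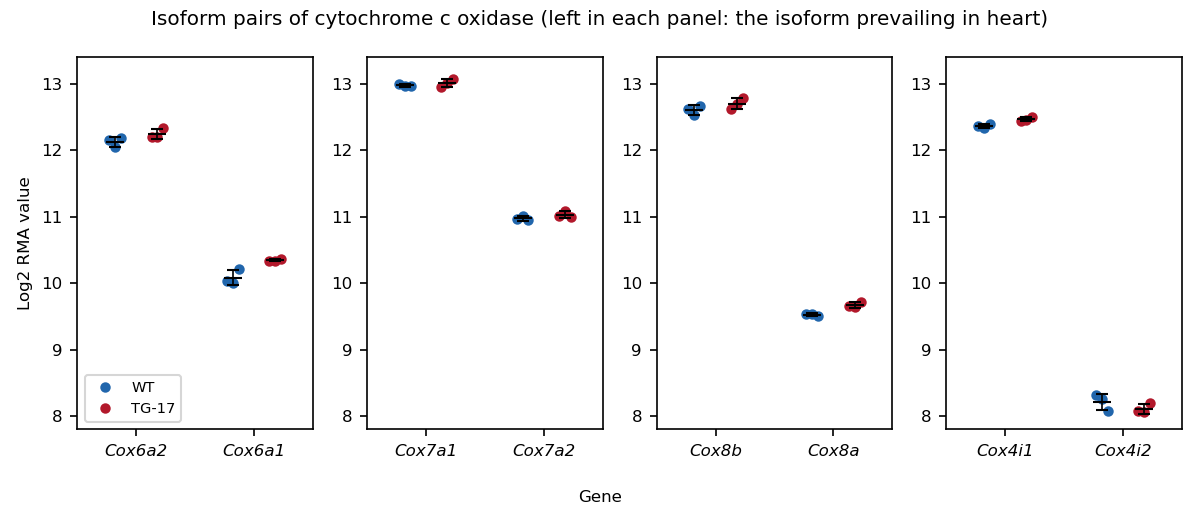
Points are the log2 RMA values of the 3 WT and 3 TG-17 mice for the isoform pairs of complex IV, with means and SD as lines. The groups lie apart for Cox6a2, Cox6a1, Cox8a and Cox4i1 and overlap for Cox7a1, Cox7a2, Cox8b and Cox4i2.

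Complex V has further subunits, described below, beside the 10 genes read here. These 10 genes had a median log2 fold change of 0.016, with 6 means higher and 4 lower in TG-17. The median was 0.067 with centred arrays and -0.0049 after a second quantile normalization. Atp5b, the catalytic beta subunit, had log2 values of 13.89, 13.91 and 13.86 in WT and of 13.77, 13.83 and 13.75 in TG-17. All TG-17 mice were below all WT mice, and the log2 fold change of -0.10 (SE 0.050, limma adjusted p = 0.383) was the lowest of the 34 genes. It was below a limma p of 0.05 before adjustment after a second quantile normalization and with an intensity trend. Atp5a1, the alpha subunit that alternates with beta in the catalytic ring, had a log2 fold change of -0.0070, and the gamma subunit of the rotating stalk, Atp5c1, one of 0.012. Atp5o, which ties the catalytic head to the peripheral stalk, had values of 12.08, 12.00 and 12.10 in WT and of 12.14, 12.13 and 12.14 in TG-17. The groups did not overlap, with a log2 fold change of 0.072 (SE 0.052). Atp5h, another stalk subunit named after its values were seen, had values of 13.31, 13.27 and 13.28 in WT and of 13.32, 13.37 and 13.36 in TG-17 and a log2 fold change of 0.063, also without overlap. The stalk subunits Atp5pb and Atp5j had 0.031 and 0.020. Atp5g1 and Atp5g3, which encode the same membrane ring subunit, had log2 fold changes of 0.074 and -0.044, and the delta subunit Atp5d of the rotating stalk had one of -0.039.

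The change in a gene was related to its level across the whole array. In the deposited values, the median log2 fold change of all genes was -0.070 at mean log2 values of 6 to 7, 0.018 at 8 to 9, 0.067 at 11 to 12 and 0.026 at 13 to 14. The array medians were 6.93 to 6.95 in WT and 6.89 to 6.91 in TG-17. Cox6a1 and Cox6b1, at mean log2 values of 10.21 and 11.91, lay above the median of genes of their level, and Atp5b, at 13.83, lay below it. The part of this dependence on level in the values of complexes II to V was not tested.

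**Figure D4:**
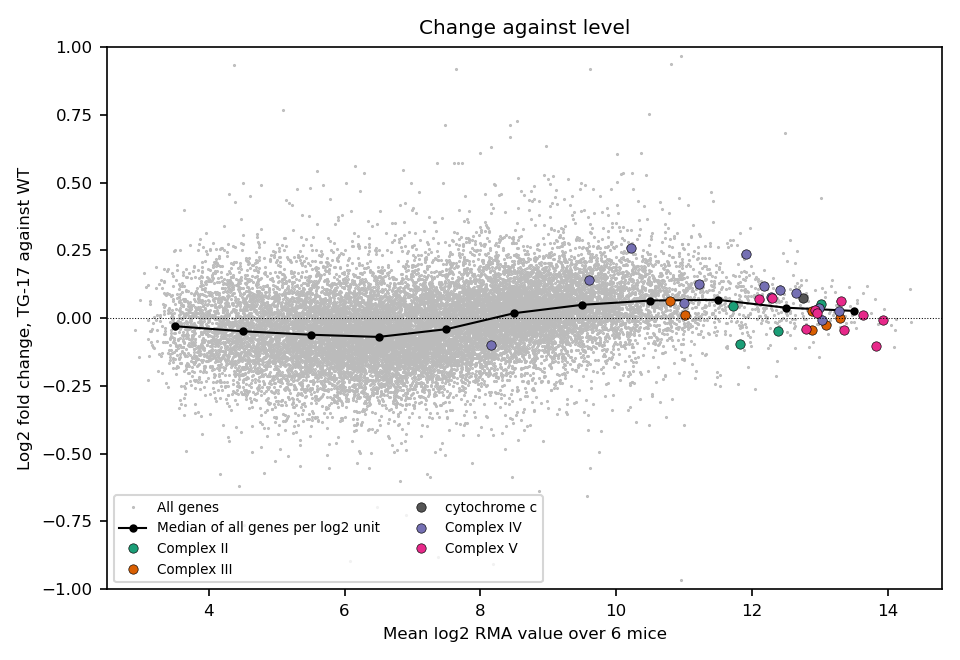
The log2 fold change of TG-17 against WT is drawn against the mean log2 RMA value over the 6 mice, for all genes in grey (2 genes lie outside the drawn range) and for the 34 genes by complex. The black line joins the medians of all genes per log2 unit, which in the deposited values are below 0 for dim genes and above 0 for bright ones.

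Abundant mitochondrial genes have left processed copies in the genome, and a probe set may read a copy. The 34 genes had 45 probe sets, and 8 of the genes had more than 1. In 6 of these 8 genes all probe sets had log2 fold changes of the same sign, and in Atp5pb (0.031 and -0.015) and Cox5b they were of opposite sign. Probe set numbers on this array follow the genome, and 96.8% of 21763 named probe sets had neighbors in number from the chromosome of their own gene. For 4 of the 34 genes, Cycs, Cox6c, Cox7b and Atp5pb, the brightest probe set stood among those of another chromosome, so its values are uncertain as a measure of the gene. Cycs lies on chromosome 6 and its brightest probe set stood among those of chromosome 5. The Cycs probe set among those of chromosome 6 was dim, with a mean log2 value of 8.06, and had a log2 fold change of 0.12 (SE 0.12). The Cox7b probe set among those of chromosome X had a log2 fold change of 0.13, and the Cox6c probe set among those of chromosome 15 had one of 0.057. None of the 3 turned sign, whereas Atp5pb did, at -0.015.

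Of 18 names listed as other nuclear subunits, 16 were measured. The list also holds the associated proteins Atpif1 and Dmac2l. The median log2 fold change was 0.093, with 0 at B above 0 in limma. At a limma p under 0.05 before adjustment 2 (12.5%) were higher and 0 lower, beside 6.65% and 8.76% of all genes. Among bright genes, of which this list has 12, 19.0% were higher. The 2 higher genes were Atp5e and Atp5l. Atp5e, the epsilon subunit of ATP synthase, had 10.36 ± 0.15 in WT and 10.65 ± 0.15 in TG-17 (mean log2 value ± SD, n = 3), a log2 fold change of 0.29 (SE 0.11). Atp5l, a membrane subunit of ATP synthase, had one of 0.22 (SE 0.087). Next by p was Atp5md, a small ATP synthase subunit, at 0.12. Of 6 subunits encoded in mitochondrial DNA only COX2, a catalytic subunit of complex IV, was measured, with a log2 fold change of 0.020. The difference between the genes of these lists and the 34 genes was not tested.

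Of 37 assembly factors, 34 were measured, with a median log2 fold change of 0.026 and 0 at B above 0. At a limma p under 0.05 before adjustment 3 (8.82%) were higher and 2 (5.88%) lower, beside 6.65% and 8.76% of all genes. Only 5 of the 34 were bright. Tmem70, needed to build ATP synthase, had log2 values of 9.55, 9.63 and 9.59 in WT and of 9.39, 9.29 and 9.29 in TG-17. It was lower in all TG-17 mice, with a log2 fold change of -0.27 (SE 0.056, limma adjusted p = 0.224). Cox19, which serves copper delivery to complex IV, had values of 8.09, 7.99 and 8.15 in WT and of 8.27, 8.33 and 8.43 in TG-17, a log2 fold change of 0.27 (SE 0.070). Sdhaf2, which helps attach flavin to Sdha, had a log2 fold change of 0.19 (SE 0.055). The other genes at that p, named after their values were seen, were Higd1a at 0.17 and Coa5 at -0.16. Of 11 transport and energy transfer genes, 9 were measured, with a median of 0.036. Among them Slc25a5, an ADP and ATP carrier, had a log2 fold change of 0.22 (SE 0.062), the uncoupling protein gene Ucp3 one of -0.28 (SE 0.11) and the outer membrane channel Vdac3 one of 0.058.

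Among 15 regulators of mitochondrial genes, the median log2 fold change was 0.0041, with 0 at B above 0 in limma. At a limma p under 0.05 before adjustment 3 (20%) were higher and 1 (6.67%) lower, beside 6.65% and 8.76% of all genes. Only 1 of the 15 was bright. Ppargc1a encodes PGC-1alpha, a coactivator known to act with NRF1, GABP and ERR on respiratory chain genes. It had log2 values of 10.23, 10.29 and 10.51 in WT and of 10.91, 11.36 and 11.58 in TG-17. All TG-17 mice were above all WT mice, and the log2 fold change was 0.94 (SE 0.18), or 1.92-fold, with B of -0.69 and a limma adjusted p of 0.224. Gabpb1, a subunit of GABP, had a log2 fold change of 0.17 (SE 0.049), and Polrmt, the mitochondrial RNA polymerase, had one of -0.17 (SE 0.061). Ppara, named after its values were seen, had 0.19 (SE 0.074). Beside the 0.94 of Ppargc1a stood a median of 0.033 over the 34 genes of complexes II to V, and the relation between them was not tested.

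Complex I, which takes electrons from NADH, and the citric acid cycle, which supplies them, are the closest sets of genes. Of 36 complex I genes, 34 were measured, with a median log2 fold change of 0.074, 31 means higher and 3 lower, 7 higher and 0 lower at a limma p under 0.05 before adjustment and 0 at B above 0. In 13 of these 34 genes (38.2%) the TG-17 mice lay above all WT mice, against 12.2% of all genes and 37.7% of the bright ones. Ndufb10, with the smallest p, had values of 9.78, 9.59 and 10.05 in WT and of 10.13, 10.23 and 10.31 in TG-17, a log2 fold change of 0.42 (SE 0.12). Ndufb8 and Ndufa12 had 0.23 and 0.20. The share of complex I genes at that p was 20.6%, against 23.1% in complex IV, 19.0% among bright genes and 6.65% among all genes. Of the complex I genes 28 of 34 were bright, and of complex IV 11 of 13. Of the 3 complex IV genes at that p, Cox8a was not bright. Of 18 genes of the citric acid cycle and the pyruvate dehydrogenase complex, listed together, 17 were measured. Their median was 0.030, and 5.88% were higher at that p. Idh2, a mitochondrial isocitrate dehydrogenase, was the only one at a limma p under 0.05 before adjustment, with values of 12.67, 12.66 and 12.65 in WT and of 12.80, 12.81 and 12.78 in TG-17 and a log2 fold change of 0.14 (SE 0.046). Pdhx and Dlat of the pyruvate dehydrogenase complex had 0.15 and -0.098. Differences between these sets and complexes II to V were not tested.

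The tissue was checked on marker genes of its cells, summed on the linear scale in each mouse. The 10 ventricular muscle markers, all bright, summed to 138784 to 140020 in WT and 138092 to 140659 in TG-17. At a limma p under 0.05 before adjustment 0 were higher and 0 lower, beside 19.0% and 2.91% of bright genes. All TG-17 values lay above all WT values in 3 markers and below in 2, against 37.7% and 7.03% of bright genes. Among these, Myl2 had a log2 fold change of 0.12, and Tnnt2 and Ryr2 had -0.11 each. The 8 atrial markers summed to 4516 to 5379 in WT and 3910 to 4040 in TG-17, with 6 means lower and 2 higher. The atrial light chains Myl7 and Myl4 fell by 0.64 and 0.66 on the log2 scale. Both were at B above 0, but at a limma adjusted p of 0.205. The 6 smooth muscle markers summed to 12214 to 13023 in WT and 11522 to 11869 in TG-17, with 5 means lower and 1 higher. Sums without the brightest gene were made only for the leukocyte, skeletal muscle and brown fat markers. The 7 leukocyte markers summed to 2013 to 2117 in WT and 2206 to 2257 in TG-17, but 4 of the 7 had lower means in TG-17, and without the lysozyme gene Lyz2 (log2 fold change 0.27) the sums overlapped, at 1146 to 1205 in WT and 1143 to 1170 in TG-17. The T cell gene Cd3e had a log2 fold change of -0.27. The 6 skeletal muscle markers summed to 8421 to 8924 in WT and 9181 to 9244 in TG-17, but Ckm, which heart muscle also expresses, made up at least 93.5% of this sum in every mouse. Without Ckm the other 5 summed to 509 to 548 in WT and 465 to 486 in TG-17, and 4 of the 6 markers had lower means. The 6 brown fat markers include Cox8b, one of the 34 genes, and without it the other 5 summed to 645 to 674 in WT and 614 to 683 in TG-17, with Adipoq at a log2 fold change of -0.23. Endothelial, fibroblast and erythroid sums overlapped between the groups. The part of these cell types in the values of complexes II to V was not tested.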

How the data were processed

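RNA of ventricles from 3 TG-17 and 3 WT mice at postnatal day 17 was measured on Affymetrix arrays, 1 for each mouse. The values deposited by the authors are log2 values of probe sets, made with RMA according to the submitters' processing notes. Neither the RMA version nor a filter is given in the sources used here. All 35556 probe sets were used as deposited. Of these, 21789 had 1 gene symbol in the platform annotation, 1621 had several and 12146 were not listed. Groups were taken from the labels, and the line and its promoter from the study's methods. The mice are separate animals, and their number limits the precision. TG-17 was compared with WT in limma 3.58.1 (R 4.3.3; lmFit, eBayes without a trend, assumed share of changed probe sets 0.01), with Benjamini-Hochberg adjustment over all probe sets, and the fit was tested on simulated data. Isoform pairs were compared by exact permutation (scipy 1.17.1). The 34 genes and all gene lists were chosen with earlier results of these data known. Named by rule with values in every mouse were genes at B above 0 or an unadjusted p under 0.05, those with the smallest p of each complex, those with the largest rise and fall, and all Cox isoform pairs, 16 genes in all, to which Sdhc, Cox5a and Atp5h were added after their values were seen. Of the other lists, genes at B above 0 and up to 3 with the smallest p were named, with Mir499 and Ppargc1a in any case. Alternatives tried were removal of dim probe sets, centring, a second quantile normalization, other moderation settings, the replicate number as a block and leaving out each mouse. Own-chromosome probe sets and the background of bright genes were added after seeing the data. So were the leukocyte, skeletal muscle and brown fat marker sums without their brightest gene. The other transgenic line, qPCR and the human arrays were not analysed here.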

Additional observations from a re-analysis of the deposited data

How the results depend on the processing

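In all 17 alternatives 0 of the 34 genes passed B above 0 or an adjusted p under 0.05 in limma. The count of genes higher at a limma p under 0.05 before adjustment was 3, and it was 5 with a filter on dim probe sets, 6 with centred arrays, 5 with an intensity trend and 1 to 3 with 1 mouse left out. It was 2 (Cox6a1 and Cox6b1) after a second quantile normalization. The count lower was 0, and it was 2 (Sdhd and Atp5b) after a second quantile normalization and with an intensity trend. With centred arrays and after a second quantile normalization, in that order, the median log2 fold change was 0.085 and -0.0019 over the 34 genes, 0.050 and -0.062 in complex II, 0.056 and -0.047 in complex III, 0.14 and 0.040 in complex IV and 0.067 and -0.0049 in complex V. Over complex III it was -0.0036 to 0.0098 with 1 mouse left out, and over complex V it was 0.0027 with probe sets on the gene's own chromosome. Of the 34 genes, 8 changed sign with centred arrays and 6 after a second quantile normalization. Of the 16 genes named by rule, these were Cyc1 (0.0077) with centred arrays and Uqcrq (-0.0085) and Cox7a2 (-0.020) after a second quantile normalization. Centring moved the median of all genes from -0.018 to 0.033, and the second quantile normalization moved it to -0.0086. The replicate numbers are not stated to pair mice, and deviations from the group mean correlated at 0.024, -0.00044 and 0.057 between mice of the same number. With the replicate block 2 genes (Cox6a1 and Cox6b1) passed that limit as higher and 0 as lower. The causes of these changes were not tested. Differences smaller than these shifts depend on the scaling.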
